A study of Mus musculus with 572 samples.

Results

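The cells described here are 50 mTEChi, MHC class II-high medullary thymic epithelial cells, that scored highest of all cells analysed for 6 genes of neuroendocrine cells. The score was the mean of the authors' normalized values of Insm1, Chga, Chgb, Neurod1, Scg2 and Resp18, where a normalized value is the natural log of 1 plus the count per 10000 reads of the cell. The cells came from neonatal C57BL/6 thymus of unstated sex and were sorted singly as CD45-, EpCAM+, Ly51- and MHCII-high. Their genotype was EED-cKO, in which a floxed Eed gene is deleted by Foxn1-Cre, a Cre driver of thymic epithelial cells, or Aire/EED-dKO, in which that deletion is joined to an Aire knockout. Both genotypes thus lack EED in their thymic epithelium, and WT cells were not analysed here. EED-cKO held 87 and 76 cells of day 4 in batches 3 and 4 and 63 and 77 cells of day 3 in batches 8 and 9, and Aire/EED-dKO held 88, 76, 38 and 67 cells in batches 1, 2, 6 and 7, all of day 4. No label names the animal of a cell, so each genotype counts as 1 sample, genotype and batch cannot be told apart, and no test was made. Because the score chose the cells, every comparison of these 50 cells with the others is given as a description.

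Neuroendocrine cells store peptide hormones in dense-core granules and release them on stimulation. The granins (Chga, Chgb, Scg2) are the granule matrix proteins, prohormone convertases cut the hormones inside the granules, and transcription factors such as Insm1 and Neurod1 drive the fate. In the thymic medulla such genes are known in 2 settings. Aire, the regulator of tissue-restricted antigens, lets mature mTECs transcribe many of them, and mimetic cells, mTECs that take on the program of a peripheral cell type, include an endocrine kind. EED is a core subunit of PRC2, the complex that places H3K27me3 on repressed genes, among them developmental transcription factors.

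RamDA-seq, a full-length total RNA method without molecular identifiers, gave 205703 to 2419312 reads per cell. The highest-scoring cells lay within that range, at 687028 reads or more in EED-cKO and with a median of 944128 against 934491 in the other cells in Aire/EED-dKO. Levels are given in CPM, reads of a gene per 1000000 reads summed over the cells of a group, and ratios as log2 after adding 0.1 CPM. The gene knocked out, Aire, was measured first. It reached 100 CPM in 85.1% of EED-cKO cells and in 7 Aire/EED-dKO cells (2.60%). A single library labelled Aire/EED-dKO, of batch 7 and outside the 50 cells, held 1665 CPM and thus went against its label, and the next highest held 324 CPM. Reads of Eed remained in both genotypes, at 11.6 and 12.6 CPM in the other cells, but a count over the whole gene does not show the deleted part and so does not check the labels. Epcam had at least 5 reads in 14 of 14 and 36 of 36 of the highest-scoring cells, as had the MHC class II gene H2-Aa. Ptprc, which encodes CD45, summed to 0.241 CPM in the 14 cells and to 23.4 CPM in the 36, where 88.7% of its reads lay in a single cell.

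The highest-scoring cells were more frequent among Aire/EED-dKO cells. Of the 50, 36 were Aire/EED-dKO, which is 13.4% of that genotype (95% exact interval 9.55 to 18.0), and 14 were EED-cKO, which is 4.62% (2.55 to 7.63). These intervals, like all intervals here, cover counting error only, and amplified reads are not independent molecules. Aire/EED-dKO cells were thus 72% of the 50 and 47.03% of all cells. By batch, the share was 14.8%, 15.8%, 5.26% and 13.4% in Aire/EED-dKO batches 1, 2, 6 and 7, and 4.60%, 6.58%, 3.17% and 3.90% in EED-cKO batches 3, 4, 8 and 9. The shares of Aire/EED-dKO batches 1, 2 and 7 lay above every EED-cKO batch, while batch 6, the smallest with 38 cells, lay within their range. The share moved with the form of the score. With Insm1 left out of the score, or with each gene divided by its SD, Aire/EED-dKO cells were 56% of the 50. With any 1 of the other 5 genes left out they were 32 to 38 of the 50 cells. Insm1 was also higher in the cells that the score without it left unselected, at 219.2 CPM in Aire/EED-dKO against 106.3 CPM in EED-cKO. The score had no gap at the limit. The last cell inside scored 0.419 and the first 3 outside scored 0.417, 0.416 and 0.416, whereas the highest scored 0.856 and the other cells had medians of 0.127 for EED-cKO and 0.233 for Aire/EED-dKO.

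**Figure D1:**
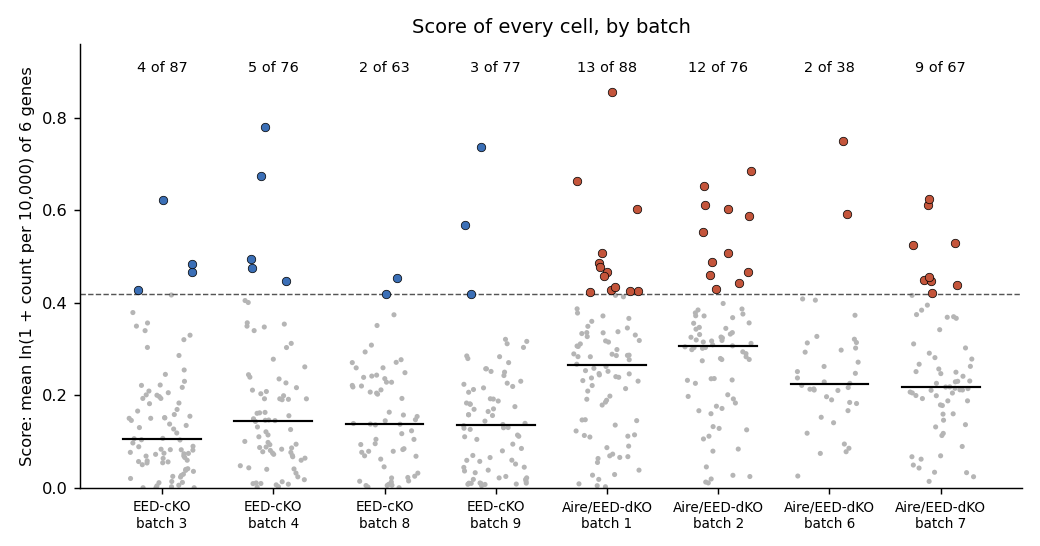
Score of each cell (vertical axis, mean natural-log value of the 6 genes) by genotype and batch, with the 50 highest-scoring cells in colour, the other cells in grey, a black line at the median of each batch and a dashed line at the lowest of the 50 scores. The numbers give the highest-scoring cells of each batch, from 2 of 63 in EED-cKO batch 8 to 13 of 88 in Aire/EED-dKO batch 1, and the scores pass the dashed line without a gap.

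The data went against the label of a neuroendocrine cell type, and the cells are called here by their score. Not a single cell had at least 5 reads of all 6 genes (0 of either genotype). Among the 14 EED-cKO cells, 6 had 2 of the genes at that level, 4 had 3, 3 had 4 and 1 had 5. Among the 36 Aire/EED-dKO cells, 6 had 2, 24 had 3, 5 had 4 and 1 had 5. A single gene usually led the score, and the leading gene differed between genotypes. In EED-cKO it was Scg2 in 4 cells, Insm1 in 3, Chga in 3, Chgb in 2 and Neurod1 and Resp18 in 1 each. In Aire/EED-dKO it was Insm1 in 18 cells and Resp18 in 13, with Scg2 in 3 and Chga in 2. The cell ranked first, of Aire/EED-dKO batch 1, held 1406 CPM of Scg2 and 633 CPM of Resp18 with 8.01 CPM of Insm1. The cell ranked second, of EED-cKO batch 4, held 801 CPM of Neurod1 and 715 CPM of Scg2 with no read of Chgb. At the other extreme, the EED-cKO cell ranked 49 took 94.9% of its score from Scg2.

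**Figure D2:**
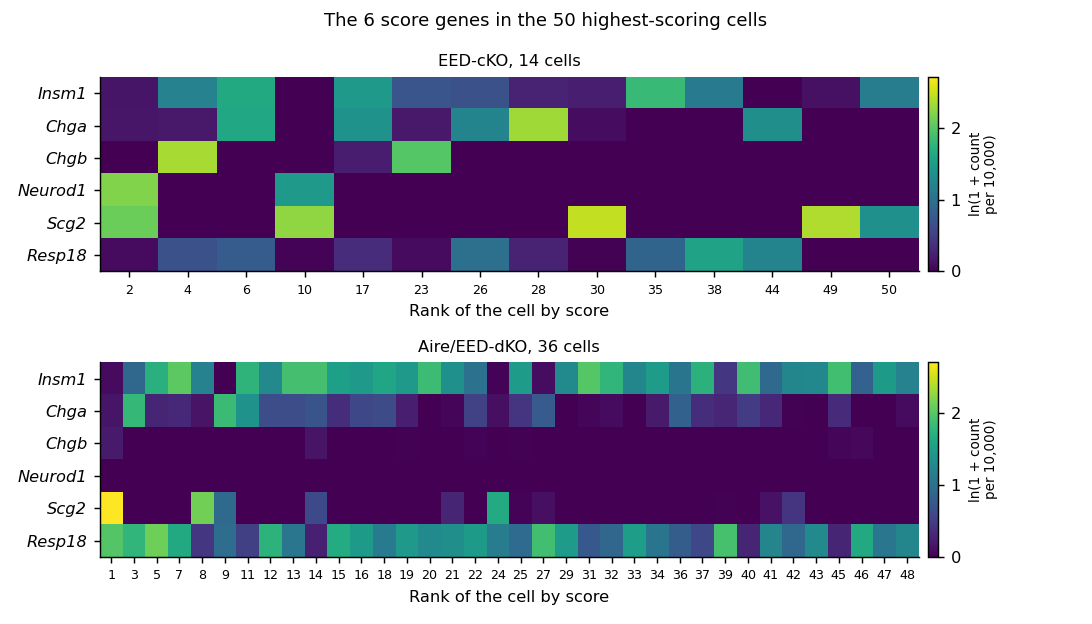
Heat map of the natural-log values of the 6 score genes (rows) in the 50 highest-scoring cells (columns, by rank of score), 14 EED-cKO cells above and 36 Aire/EED-dKO cells below, on a shared colour scale. In EED-cKO the bright fields are scattered over 6 genes, while in Aire/EED-dKO they lie in the rows of Insm1 and Resp18, with Neurod1 at 0 reads in each of the 36 cells.

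Resp18, a luminal protein of the endocrine secretory pathway, was the gene the Aire/EED-dKO cells shared most. It ranged from 27.6 to 724 CPM in them with a median of 245.3, against 0 to 518 CPM and a median of 10.5 in the other Aire/EED-dKO cells. At least 5 reads were found in 36 of 36 (100%) against 56.2% of the others, and 8 of the others (3.43%) reached the median of the 36. Summed over cells it was at 281.8 CPM (276.025 to 287.65) against 44.5 CPM (43.6 to 45.4). In EED-cKO it ranged from 0.772 to 379 CPM with a median of 35.6, against a median of 0.704 CPM in the others. The groups overlapped in both genotypes.

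Insm1, the zinc-finger factor of endocrine differentiation, was already frequent outside the 50 cells. In Aire/EED-dKO it had at least 5 reads in 34 of 36 highest-scoring cells and in 94.0% of the others, with medians of 310 and 180 CPM. In EED-cKO it had them in 12 of 14 cells and in 75.4% of the others, with medians of 100 and 32.4 CPM. Insm1 thus separated the groups least of the 6 genes in both genotypes apart from the nearly silent Neurod1 of Aire/EED-dKO, with summed log2 ratios of 0.68 for EED-cKO and 0.54 for Aire/EED-dKO. In EED-cKO batch 3 the ratio was -1.42, the only 1 of the 8 batches in which it was lower.

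The granins behaved differently. Chga, chromogranin A, summed to 160 CPM against 24.8 in EED-cKO and to 67.1 against 11.2 in Aire/EED-dKO, and was found with at least 5 reads in 9 of 14 and 27 of 36 cells. Scg2, secretogranin II, summed to 259.4 CPM against 5.92 in EED-cKO and to 90.5 against 1.87 in Aire/EED-dKO, but from 5 of 14 and 9 of 36 cells, with medians of 0 CPM in every group. Its highest EED-cKO cell held 1077 CPM. Its highest Aire/EED-dKO cell held 1406 CPM and had 54.2% of the group's reads. Chgb, chromogranin B, was at 111.4 CPM against 3.77 in EED-cKO, from 3 of 14 cells, and at 1.46 against 0.806 in Aire/EED-dKO. Neurod1, a basic helix-loop-helix factor of endocrine and neuronal cells, was at 58.3 CPM against 1.09 in EED-cKO, from 2 cells. The 36 Aire/EED-dKO cells held 0 reads of it, which allows up to 0.0931 CPM (3 reads in all), and the other cells of that genotype held 4. Neurod1 overlaps Cerkl on the genome and reads were counted without strand, so reads in the shared stretch cannot be told apart. Overlaps here are of whole genes, and exons were not compared.

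With each gene in turn left out of the score, its level was mostly within 2-fold of the other cells or lower. For each gene the 50 cells with the highest mean of the other 5 were taken, so that the gene did not choose them. In EED-cKO 0 of 6 genes were at least 2-fold higher in summed level in the cells so chosen. The log2 ratios were 0.98 for Scg2, 0.33 for Resp18, 0.10 for Chga, -0.71 for Insm1, -2.07 for Chgb and -4.63 for Neurod1. Per cell, Resp18 had a median of 8.27 against 0.701 CPM there and at least 5 reads in 66.7% of the chosen cells against 35.1% of the others. In Aire/EED-dKO, where Neurod1 had 0 CPM against 0.0188 CPM and could not be called, 3 of the other 5 genes were at least 2-fold higher, Scg2 at 2.99, Chga at 1.25 and Resp18 at 1.08, while Chgb was at 0.51 and Insm1 at -0.18. The Scg2 value rested on few cells, as 6 of 38 chosen cells had at least 5 reads of it against 8.66% of the others. Pairs of score genes were found in the same cell in a larger share of cells than the product of their separate shares for 8 of 15 pairs in EED-cKO and for 5 of the 10 without Neurod1 in Aire/EED-dKO. In EED-cKO 24.1% of all cells had at least 5 reads of both Chga and Resp18, where the product of their separate shares was 16.6%, and in Aire/EED-dKO 38.3% had both against a product of 30.5%. Chga and Scg2 were both found in 5.61% of cells against 4.30% in EED-cKO and in 7.06% against 4.74% for Aire/EED-dKO, and Scg2 and Resp18 in 4.62% against 3.54% and 7.81% against 6.00%. For Insm1 and Chga the values were close, at 33.7% against 34.1% in EED-cKO and 46.8% against 46.2% in Aire/EED-dKO. Insm1 and Resp18 were both found in 26.1% against 28.1% and in 58.36% against 58.39%. Chga and Chgb lay below the product in both genotypes, at 5.94% against 6.37% and 1.86% against 2.55%. The count of 3 in Aire/EED-dKO was 1 without batch 6 and 2 without batch 1, where Scg2 stood at 0.48. In EED-cKO the count of 0 was 2 without batch 3 and 1 without batch 8 or 9, while Scg2, Chga and Resp18 were negative without batch 4, and Resp18 also without batch 9.

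**Figure D3:**
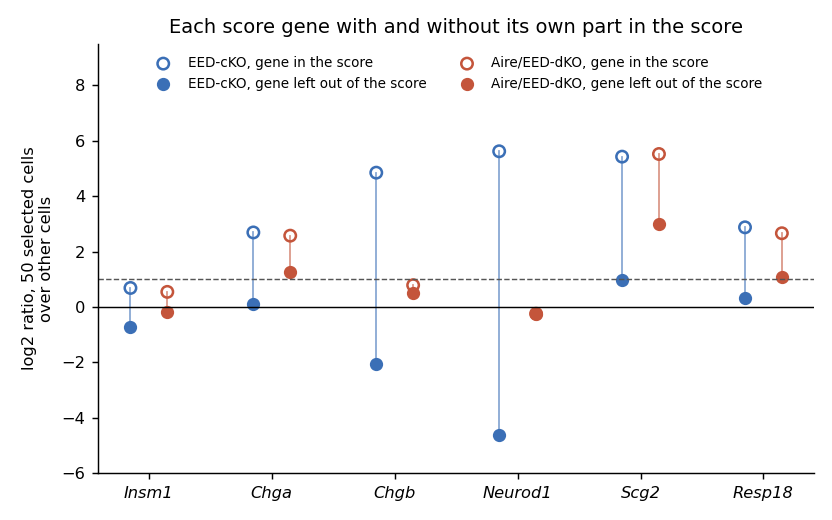
Log2 ratio of the summed level in 50 selected cells over the other cells of the genotype for each of the 6 score genes, with open circles for the score of 6 genes and filled circles for the 50 cells chosen by the other 5 genes. The dashed line marks 2-fold, which the filled circles pass for Chga, Scg2 and Resp18 in Aire/EED-dKO and for no gene in EED-cKO.

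Aire was higher in the highest-scoring EED-cKO cells than in the other EED-cKO cells. It ranged from 538 to 2653 CPM in the 14 cells with a median of 1405, and from 3.38 to 3706 CPM in the others with a median of 678. The ranges overlapped, and 74 of the others (25.6%) reached the median of the 14, but each of the 14 cells held at least 100 CPM against 84.4% of the others. Summed over cells, Aire was at 1466 CPM (1447 to 1484) against 837 CPM (834 to 840), a log2 ratio of 0.81. Within batches the ratio was 0.62, 0.84, 0.91 and 0.81 in batches 3, 4, 8 and 9, so the direction was shared by the 4 batches and both ages. The ratio fell to 0.18 with Insm1 left out of the score and to 0.21 with each gene divided by its SD. Without the 50 cells highest in cycling genes, a comparison added after the data had been seen, the ratio was 0.65. Aire overlaps Dnmt3l on the genome, and reads in the shared stretch cannot be told apart.

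In Aire/EED-dKO, Aire ranged from 0 to 86.1 CPM in the 36 cells with a median of 8.35, and from 0 to 1665 CPM in the others with a median of 7.02. The summed ratio was -0.62, from 15.3 against 23.6 CPM, and was -0.02 without the library that went against its label. Without batch 7, which holds that library, it was 0.18. The levels of the 36 cells lay within the range of the others.

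**Figure D4:**
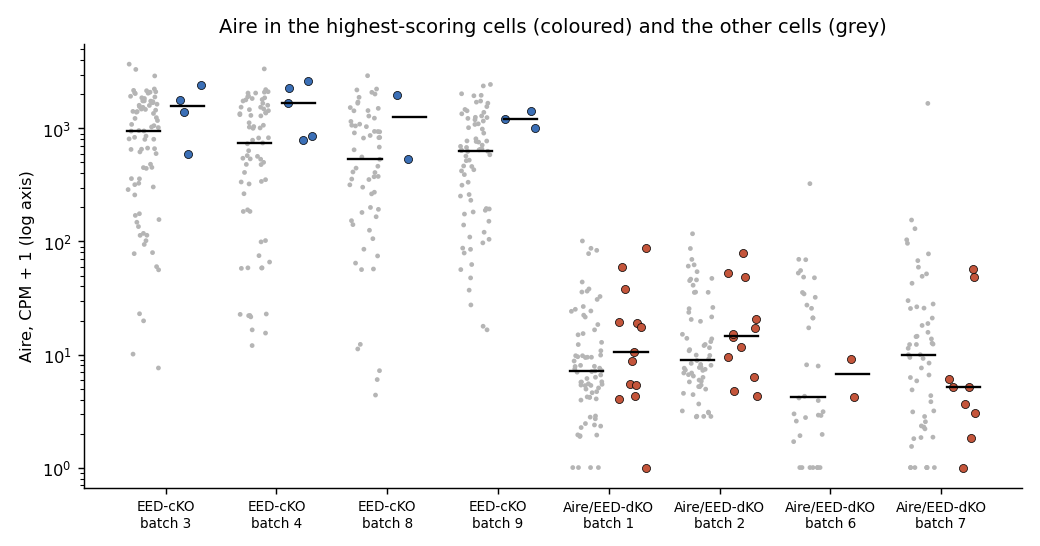
Aire in CPM plus 1 on a log axis for each cell, by genotype and batch, with the other cells in grey on the left and the highest-scoring cells in colour on the right, and black lines at the medians. In the 4 EED-cKO batches the coloured medians lie above the grey, and in Aire/EED-dKO nearly every cell lies below 100 CPM, apart from 7 cells of which 1 of batch 7 reaches 1665 CPM.

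Of 12 genes of the mature mTEChi state, Aire among them, 11 had a log2 ratio above 0 in EED-cKO and 8 for Aire/EED-dKO, with medians of 0.25 and 0.15. Their sums were 8694 against 6878 CPM and 8822 against 7869 CPM. Of the 12 genes 0 were at least 2-fold apart in either genotype, beside 12.2% of all 29858 genes tested that were at least 2-fold higher and 27.9% at least 2-fold lower in the 14 EED-cKO cells, and 6.76% and 13.4% in the 36 Aire/EED-dKO cells. The rule made these contrasts, so the shares are given as background. The median log2 ratio of all genes was -0.31 for EED-cKO and -0.10 for Aire/EED-dKO, and its cause was not tested. DESeq2 size factors raised the EED-cKO median to -0.13 and edgeR TMM to -0.21. H2-Aa stood at 1182 against 996 CPM in EED-cKO and at 1600 against 1343 CPM in Aire/EED-dKO. Fezf2, a second regulator of tissue-restricted antigens, was at 435 against 309 CPM and at 386 against 355 CPM. Cd80, the costimulatory ligand of mature cells, had medians of 205.7 against 80.3 CPM in EED-cKO and of 123.9 against 187.9 CPM for Aire/EED-dKO, which run in opposite directions, while its summed levels were 201.9 against 120 and 254.97 against 245.7 CPM.

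Of 12 granin and prohormone-processing genes outside the score, 7 (58.3%) were at least 2-fold higher and 2 (16.7%) lower in the Aire/EED-dKO cells, beside 6.76% and 13.4% of all genes, with a median log2 ratio of 1.54, and 7 were so without the cell that held most reads of each gene. Vgf, a granin-like secreted protein, summed to 21.9 against 3.57 CPM, was higher in 4 of 4 batches and had at least 5 reads in 15 of 36 cells against 15.02% of the others. Scg5, the chaperone of the convertase PC2, summed to 62.8 against 20.4 CPM, with medians of 19.95 and 5.30 CPM, and was higher in 4 of 4 batches. Its ratio was 2.31 in batch 1 and 0.21 to 0.73 in the others. Scg3, secretogranin III, was at 5.71 against 0.918 CPM and Pcsk1, the convertase PC1/3, at 4.78 against 1.27 CPM. Ptprn and Ptprn2, the granule membrane proteins IA-2 and IA-2 beta, stood at 62.8 against 22.7 CPM and at 42.9 against 5.31 CPM, and Qpct, which cyclizes peptide ends, at 1.61 against 0.398 CPM. Against this, Pcsk2, the convertase PC2, and Cpe, carboxypeptidase E, were lower at log2 ratios of -2.07 and -1.74.

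In EED-cKO 5 of the 12 genes (41.7%), Vgf, Pcsk1, Pcsk2, Pcsk1n and Ptprn, were at least 2-fold higher and 3 (25%) lower, beside 12.2% and 27.9% of all genes, and 4 were higher without the cell with most reads. The difference between the genotypes was not tested. Vgf was at 106.9 against 28.2 CPM and was higher in 4 of 4 batches, by 0.06 to 2.55 on the log2 scale. Pcsk2 took 95.9% of its reads from a single cell and Ptprn 75.8%, and Ptprn fell to a ratio of 0.22 without that cell. Qpct, at least 2-fold higher in Aire/EED-dKO, stood at 0.0603 against 2.71 CPM in EED-cKO. The median over the 12 genes was -0.18.

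Granin genes are known targets of CREB, which binds the cAMP response element. The 8-base palindrome of that element, TGACGTCA, which reads the same on both strands, was searched in the RefSeq promoter windows (build GRCm38.p6) of 250 bases before and 50 after the gene start, for the 6 score genes and the 12 granin and processing genes. Of these 18 genes 14 had an entry, and Insm1, Vgf, Cpe and Qpct had none. A match stood in 3 of their 16 windows (18.75%), beside 588 of 32851 windows in the table (1.79%). The stretches are shown because they belong to a pair of score genes and to a convertase that was higher in both genotypes. Capitals mark the element, and each is given 5′ to 3′ on the gene's strand.
Scg2: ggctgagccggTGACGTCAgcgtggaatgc
Chgb: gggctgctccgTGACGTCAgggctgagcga
Pcsk1: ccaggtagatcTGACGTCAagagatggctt
They lie at chr1:79440076-79440105 on the minus strand, chr2:132781559-132781588 on the plus strand and chr13:75089768-75089797 on the plus strand. The element starts 68, 72 and 78 bases before the RefSeq start, which lies 94, 364 and 31 bases downstream of the start that GENCODE M21 gives. A match is a description of the sequence, and no binding was measured.

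Of 25 hormone and amine-synthesis genes that passed the filter on low counts, 12 (48%) were at least 2-fold higher in the 14 EED-cKO cells, with a median of 0.97, and 4 (16%) lower, beside 12.2% and 27.9% of all genes. Without the cell with most reads of each gene 10 of the 12 were at least 2-fold higher, Ins2 and Tac1 were not, and Gal and Pomc were in addition. In 8 of the 12 a single cell held at least 50% of the reads. In the 36 Aire/EED-dKO cells 1 (4%), Nts, was higher and 3 (12%) lower, near the 6.76% and 13.4% of all genes, with a median of 0.36. The difference between the genotypes was not tested. Ins1 did not pass the filter. Vip, vasoactive intestinal peptide, summed to 243.4 against 3.78 CPM with a highest cell of 1454 CPM, and had at least 5 reads in 3 of 14 cells. Sst, somatostatin, was at 136.6 against 19.4 CPM, also from 3 cells. Ins2, insulin, was at 30.1 against 1.67 CPM and Tac1, the precursor of substance P, at 101.7 against 5.81 CPM, but 99.2% and 99.1% of these reads lay in a single cell each. Tph1, the enzyme of serotonin synthesis, was spread more widely, at 256.1 against 74.6 CPM with at least 5 reads in 10 of 14 cells. Pyy and Ppy, gut and islet peptides, were lower, at 0.723 against 27.6 CPM and 0.723 against 9.60 CPM. In Aire/EED-dKO, Vip stood at 0.155 against 1.88 CPM and Sst at 0.466 against 0.422 CPM, and Nts, neurotensin, at 9.68 against 1.60 CPM had 69.9% of its reads in a single cell. Calca and Calcb, the genes of the calcitonin gene-related peptides, were within 2-fold there, at 197.95 against 160 CPM and 374 against 312 CPM.

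Of 19 transcription factors of endocrine fate that passed the filter, 6 (31.6%) were at least 2-fold higher and 11 (57.9%) at least 2-fold lower in EED-cKO, beside 12.2% and 27.9% of all genes, with a median of -1.38. In Aire/EED-dKO 2 (10.5%) were higher and 3 (15.8%) lower, near the 6.76% and 13.4% of all genes, with a median of -0.38. Neurog3, which starts islet endocrine fate, had 0 reads in the 14 EED-cKO cells and 4 in the 36 Aire/EED-dKO cells. Nkx2-2 and Nkx6-1 were at 0.301 against 4.86 CPM and 0.0603 against 7.76 CPM in EED-cKO, and Nkx2-2 had 0 reads in the 36 cells. Insm2, a relative of Insm1, was at 37.4 against 1.43 CPM, with 99.03% of its reads in a single cell. In Aire/EED-dKO, Rfx6, a factor of islet and gut endocrine cells, was at 16.0 against 6.98 CPM with at least 5 reads in 11 of 36 cells, and Myt1 at 9.37 against 2.43 CPM with 89.7% of its reads in a single cell.

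Of 18 genes of regulated exocytosis, 11 were within 2-fold in EED-cKO and 14 for Aire/EED-dKO, and of 12 of electrical excitability 6 and 9 were. In Aire/EED-dKO 3 of 18 exocytosis genes were at least 2-fold higher, Syp, Unc13a and Snap25, and 2 of 12 excitability genes, Kcnj11 and Abcc8, while 1 gene of each list was lower. Without the cell with most reads of each gene, 1 of 18 and 1 of 12 were higher. Of all genes, 6.76% were at least 2-fold higher and 13.4% lower in Aire/EED-dKO, and 12.2% and 27.9% in EED-cKO. Kcnj11 and Abcc8 form the ATP-sensitive potassium channel of beta cells, and both were higher in 4 of 4 batches, Kcnj11 at 22.1 against 9.57 CPM and Abcc8 at 239.3 against 117.7 CPM. Unc13a, which primes vesicles, was at 92.2 against 43.3 CPM and higher in 4 of 4 batches. In EED-cKO 3 of 18 exocytosis genes, Snap25, Rims2 and Unc13a, were at least 2-fold higher (16.7%) and 4 lower (22.2%), near the shares of all genes, and 0 were higher without the cell with most reads of each. Of 12 excitability genes 4, Cacna1a, Kcnh6, Scn3a and Trpm5, were higher there and 2 lower. Of these, Cacna1a, a calcium channel subunit, was at 266.7 against 102.5 CPM with at least 5 reads in 14 of 14 cells. Trpm5 took 88.1% of its reads from a single cell. In Aire/EED-dKO 0 of 12 pan-neuronal genes were at least 2-fold higher and 3 were lower. In EED-cKO 7 of 12 (58.3%) were higher and 2 (16.7%) lower, beside 12.2% and 27.9% of all genes, with a median of 1.63. Without the cell with most reads 3 were higher, with Nefl, a neurofilament, at 97.6% and Tubb3, a neuronal tubulin, at 93.9% of reads in a single cell.

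**Figure D5:**
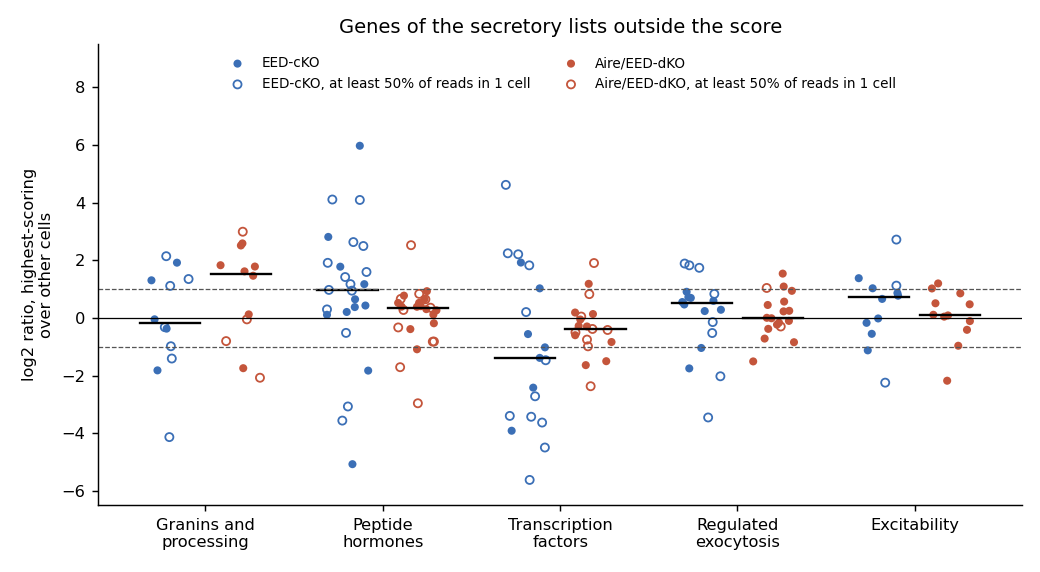
Log2 ratio of the summed level in the highest-scoring cells over the other cells (vertical axis) for the 86 genes of 5 secretory lists that passed the filter, EED-cKO in blue and Aire/EED-dKO in red, with open circles where a single cell held at least 50% of the group's reads, black lines at the medians and dashed lines at 2-fold. The red median is highest for granins and processing (1.54) and the blue median for peptide hormones (0.97), and 20 of the 30 blue genes past 2-fold are open circles.

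Over the 5 lists together, 30 of 86 genes (34.9%) were at least 2-fold higher in EED-cKO and 24 (27.9%) at least 2-fold lower, beside 12.2% and 27.9% of all genes. In Aire/EED-dKO 15 (17.4%) were higher and 10 (11.6%) lower, beside 6.76% and 13.4%. Nts, Pcsk1, Ptprn, Snap25, Unc13a and Vgf, 6 in all, were at least 2-fold higher in both genotypes, which is 20% of the EED-cKO genes and 40% of the Aire/EED-dKO genes. Of all genes tested 446 were, which is 12.2% and 22.1%. Without the cell with most reads of each gene, only Pcsk1 and Vgf of the 6 stayed at least 2-fold higher in both genotypes. Single cells carried many of these values. In EED-cKO 20 of the 30 genes (66.7%) had at least 50% of their reads in 1 of the 14 cells, beside 75.4% of all genes at least 2-fold higher there. In Aire/EED-dKO this held for 4 of 15 (26.7%), beside 48.2%. Without the cell with most reads of each gene, 24 genes were at least 2-fold higher in EED-cKO, and 12 were for Aire/EED-dKO. With the day 4 EED-cKO cells alone the count was 18.

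The 86 genes were also summed and counted per cell. Their summed level had a median of 7057 CPM in the 14 EED-cKO cells (quartiles 5699.8 and 7372.9) against 4229.98 CPM in the others (2971.3 and 5632.8), and of 5881 CPM in the 36 Aire/EED-dKO cells (5305.4 and 6557) against 5153 CPM (3778 and 6224). The ranges overlapped in both genotypes, while the lower quartile of the 14 lay above the upper quartile of the other EED-cKO cells. With each cell thinned to 200000 reads, the 14 EED-cKO cells had at least 5 reads of 18 to 31 of the 86 genes, with a median of 25, and the others of 10 to 35, with a median of 21. The 36 Aire/EED-dKO cells had them for 16 to 33 genes, with a median of 23, and the others for 12 to 35, with a median of 22. The medians of the highest-scoring cells lay above the others in each of the 4 EED-cKO batches, at 24.5, 25, 23 and 27 against 22, 22, 20 and 20 in batches 3, 4, 8 and 9. In Aire/EED-dKO they were 23 against 22 in batch 1, 26 against 22 in batch 6 and 22 against 22 in batches 2 and 7. The ranges of these counts overlapped too, and cells outside the 50 reached the highest counts.

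Ptprn, the IA-2 gene, lies next to Resp18 on chromosome 1, at 75247027 to 75264502 beside 75272199 to 75278415, with Des, the muscle filament gene, further on at 75360329 to 75368579. These positions are of GRCm38, and the neighbours of the score genes were chosen after their values were seen. Resp18 led the score in 13 of the 36 Aire/EED-dKO cells and Insm1 in 18. In the 36 cells Ptprn was 2-fold higher or more, as given above, and Des was at 228.1 against 133.9 CPM. Dnpep and Speg, which also lie within 150 kb, stood at 99.3 against 93.9 CPM and 67.8 against 68.3 CPM. Other genes within 150 kb of Resp18 are not given here. Near Chgb, Lrrn4 was at 75.2 against 1.51 CPM in EED-cKO, with 90.7% of its reads in a single cell. Cerkl, which overlaps Neurod1, was at 14.5 against 1.84 CPM in EED-cKO.

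Markers of other cell types were summed in the same way. Their counts stand beside the shares of all genes, of which 12.2% were at least 2-fold higher and 27.9% lower in EED-cKO, and 6.76% and 13.4% in Aire/EED-dKO. Of 10 cycling genes 9 (90%) were at least 2-fold lower in both genotypes, and 0 of 14 and 0 of 36 highest-scoring cells reached a sum of 1000 CPM of these genes, which 41 and 13 of the other cells reached. Mki67, the proliferation marker, was at 58.3 against 236.6 CPM in EED-cKO, of which a single cell gave 93.4%, and at 16.4 against 109.2 CPM in Aire/EED-dKO.

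Of 6 genes of cortical epithelium, 3 (50%) were at least 2-fold higher and 0 lower in Aire/EED-dKO, beside 6.76% and 13.4% of all genes, and 1 was higher without the cell with most reads of each. In EED-cKO 1 was higher and 1 lower (16.7% each), beside 12.2% and 27.9%. Ccl25, the chemokine that draws thymocyte precursors, ranged from 0.920 to 1942 CPM with a median of 156.5 in the 36 cells, against a median of 24.4 CPM in the others. Summed over cells it was at 400 against 98.2 CPM and was higher in 4 of 4 batches, at log2 ratios of 1.92 to 2.78. The others overlapped it, as 38 of them (16.3%) reached the median of the 36. Psmb11, the thymoproteasome subunit that defines cortical cells, was at 14.5 against 5.52 CPM, but 78.3% of its reads lay in a single cell, and Cxcl12 had 81.03% in a single cell. In EED-cKO, Ccl25 was at 81.2 against 48.5 CPM and was higher in 2 of 4 batches. Ccl25 overlaps Elavl1, and Resp18 overlaps Gm28902, so that reads in the shared stretches cannot be told apart.

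Of 10 genes of mesenchyme, endothelium and Schwann cells, 4 (40%) were at least 2-fold higher and 3 (30%) lower in EED-cKO, beside 12.2% and 27.9% of all genes, and their sum was 993 CPM in the 14 cells (95.3 to 1818 by batch) against 250 CPM in the others (162.4 to 300.3). Per cell the sum had a median of 230.8 CPM in the 14 cells (quartiles 34.7 and 1500.8) against 74.8 CPM in the others (26.7 and 169.7). Without the cell with most reads of each gene, 3 of the 10 genes were at least 2-fold higher. Col1a1, collagen I, made up most of the summed level, at 617 against 88.5 CPM with a median of 5.77 CPM and a highest cell of 6329 CPM. Pdgfra, Kdr and Sox10, the defining genes of fibroblasts, endothelium and Schwann cells, had 98.9%, 100% and 92.9% of their reads in a single cell each. In Aire/EED-dKO 0 of the 10 genes were at least 2-fold higher and 2 lower, with sums of 62.8 against 69.6 CPM. Of 8 thymocyte genes 1 (12.5%) was at least 2-fold higher, near the 12.2% of all genes, and 6 (75%) lower in EED-cKO, and 0 were higher and 3 (37.5%) lower for Aire/EED-dKO, where the shares of all genes were 6.76% and 13.4%. The sums were 30.8 against 57.5 CPM (7.34 to 57.6 and 51.4 to 63.5 by batch) and 52.3 against 80.8 CPM (27.1 to 389 and 21.02 to 221.5). Medians per cell ran the other way, at 22.3 against 18.4 CPM in EED-cKO and 26.6 against 14.9 CPM in Aire/EED-dKO. At least 5 reads were found in a larger share of the highest-scoring cells for 4 of the 8 genes in EED-cKO and for 6 in Aire/EED-dKO. The part of these cell types in the results was not tested.

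The 50 highest cells for other mimetic programs were found by scores of the same form, and each such set is 8.74% of all cells. The highest-scoring cells shared 5 of 50 cells (10%) with each of the enterocyte/hepatocyte, airway and parathyroid scores and 4 (8%) with the ciliated, which are near that share. They shared 3 (6%) with the myoid, 2 with the keratinocyte and 1 with each of the tuft and microfold scores. The overlap was 0 with the cycling and mTEC-low scores and 8 (16%) with the mature mTEChi score. Of 50 genes of these 8 mimetic lists, the cycling, mTEC-low and mature mTEChi lists aside, 9 (18%) were at least 2-fold higher and 24 (48%) lower in EED-cKO, beside 12.2% and 27.9% of all genes, and 7 (14%) and 14 (28%) for Aire/EED-dKO, beside 6.76% and 13.4%. Of 3 parathyroid genes 2 were higher in each genotype. In EED-cKO these were Casr, the calcium-sensing receptor, at 188.9 against 79.9 CPM and higher in 2 of 4 batches, and Pth, parathyroid hormone, at 20.9 against 1.13 CPM with 93.4% of its reads in a single cell, while Gcm2, the defining factor of that gland, had 0 reads in the 14 cells. In Aire/EED-dKO they were Gcm2 and Pth, from 10 and 6 reads that each lay in a single cell. Of 5 airway genes 2 were higher and 0 lower in Aire/EED-dKO, with a sum of 79.9 against 29.5 CPM. Of 8 enterocyte/hepatocyte genes 2 were higher and 2 lower in EED-cKO, with a median of 0.81 and a sum of 637 against 337 CPM. Of 7 tuft genes that passed the filter, 5 (71.4%) were at least 2-fold lower in both genotypes, beside 27.9% of all genes in EED-cKO and 13.4% for Aire/EED-dKO.

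The Notch pathway restrains endocrine fate in other epithelia. In Aire/EED-dKO 0 of 12 genes were at least 2-fold apart, beside 6.76% of all genes higher and 13.4% lower, and 2 of 12 had a ratio above 0, with a median of -0.49 and Hes1, its main target, at 13.8 against 26.9 CPM. In EED-cKO 1 (8.33%) was higher and 4 (33.3%) lower, near the 12.2% and 27.9% of all genes. Heyl was at 256.7 against 105.6 CPM and the ligand Jag2 at 29.5 against 67.6 CPM. Of 10 PRC2 genes 0 were at least 2-fold apart in either genotype, with Ezh2, the methyltransferase, at 33.1 against 45.98 CPM and 37.1 against 43.5 CPM.

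By the rule for named genes, which asked for detection in 25% or more of the cells and a shared direction within batches, Scg2 led in both genotypes and was itself part of the score. In the background 1.79% of all genes were at least 2-fold higher in EED-cKO with a shared direction within batches, and 2.36% were for Aire/EED-dKO, while 23.5% and 10.2% were lower. In EED-cKO the genes after Scg2 were Rspo4, a Wnt agonist, at 94.3 against 2.44 CPM, Btnl10, Gm10419, Krt25, Zfyve28, Eef1a2, Nat8l, Cyp4f14 and Gm15513, at ratios of 5.22 to 3.31. In 7 of them, Rspo4, Btnl10, Gm10419, Krt25, Eef1a2, Nat8l and Cyp4f14, a single cell held 61.5% to 83.1% of the reads. Gm15513 lies within Zfyve28, and reads in the shared stretch cannot be told apart. The lower genes were Kirrel, B3gnt5, Sectm1a, Iqgap3, Fut10, Mmp16, Pdlim3, Lox, Anln and Sema4g. B3gnt5, Fut10 and Mmp16 had 0 reads in the 14 cells. With 3 reads put in for the group, they stood 87.9-fold, 63.1-fold and 59.4-fold lower. That bound covers counting error over the group's reads and not the spread between cells. Iqgap3 and Anln, both of cell division, were at 0.482 against 74.8 CPM and 0.783 against 66.8 CPM.

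In Aire/EED-dKO the genes after Scg2 were 2700068H02Rik, Il20ra, Tspan1, Zp2, Ly6i, Ckb, Drc1, Resp18 and Vgf, at ratios of 3.92 to 2.59. Resp18 was part of the score. Il20ra, an interleukin-20 receptor subunit, was at 23.9 against 1.86 CPM and higher in 4 of 4 batches, and Zp2, an egg coat protein, at 121.6 against 17.1 CPM with at least 5 reads in 17 of 36 cells. Ly6i belongs to a family of close copies, so its reads are uncertain. The lower genes were Wnt7b, Gm45257, Mgst1, Mmp17, Col6a2, Egr2, Cd14, Eva1c, Il1rl1 and Melk, at ratios of -4.44 to -2.77, each lower in 4 of 4 batches. Wnt7b, a secreted Wnt ligand, was at 0.776 against 18.9 CPM and Mgst1, a membrane glutathione transferase, at 0.714 against 10.97 CPM. Melk, a kinase of dividing cells, was at 3.32 against 23.2 CPM.

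At 200000 reads per cell the median was 11550 genes with a read in the 14 EED-cKO cells and 12149 in the others, a difference of -599, and 11999.5 against 12142 in Aire/EED-dKO, a difference of -142.5. The difference stayed between -616 and -530 in EED-cKO and between -259.5 and -78 in Aire/EED-dKO when each batch was left out. The cells ranged from 10075 to 15217 genes in EED-cKO and from 10174 to 13414 for Aire/EED-dKO, against 7810 to 15100 and 8771 to 14443 in the others. Of genes that the study labelled with its cluster 3 alone, a list held here in part with 431 past the filter, 31.6% were at least 2-fold higher and 42.9% lower in EED-cKO, and 11.8% and 27.8% in Aire/EED-dKO, with medians of -0.52 and -0.26, beside 12.2% and 27.9%, and 6.76% and 13.4%, of all genes. Their summed level ran opposite to the median in EED-cKO, at 13382 against 7399 CPM. The batches overlapped in it, at 7230 to 20667 against 5376 to 9150 CPM. For Aire/EED-dKO the summed level was 1566 against 1644 CPM. In the paper's single-cell clusters, cluster 3 is the main Aire-expressing one and cluster 15 holds endocrine mTECs. Of the 28 labelled with its cluster 15 alone, 6 (21.4%) and 3 (10.7%) were at least 2-fold higher and 12 (42.9%) and 8 (28.6%) lower, with medians of -0.27 and -0.01. The study made these lists itself, so they are no independent evidence of a direction.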

How the data were processed

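RamDA-seq libraries of 572 sorted cells were used, 303 EED-cKO and 269 Aire/EED-dKO, so that 289 and 233 cells stood against the 14 and 36 highest-scoring cells. Aire reached 100 CPM in 258 of the EED-cKO cells, and 126 genes were looked at for opposite directions between genotypes. Per the submitters' processing notes and the methods, the authors trimmed reads with fastp 0.20.0, aligned them with STAR 2.7.3a to mm10/GRCm38, removed reads of low mapping quality with SAMtools 1.9 and duplicates with Picard 2.21.1, and counted reads without strand with HTSeq 0.11.2. The deposited counts are whole reads per gene, not normalized. The deposited normalized values are the natural log of 1 plus the count per 10000 reads. Recomputed from the counts in 8 cells, 1 per batch, they differed by at most 5.3e-15, so scores were computed from the counts. Each of the 572 cells had a count vector of its own, 0 columns were unmatched, and no doublets were searched for, as cells were sorted singly.

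Names and positions came from GENCODE M21 (50011 of 50197 identifiers). The 29858 genes that reached 5 reads in 5 or more cells were compared as summed CPM with exact 95% Poisson intervals and log2 ratios with 0.1 CPM added. "At least 2-fold" refers to that ratio. A gene at 0 reads was bounded at 3 reads over the group, which covers counting error only. For genes per cell, each cell was thinned to 200000 reads. Each genotype counts as 1 sample, so no p-value is given. The 50 cells, the gene lists and the comparisons were chosen with earlier results of these data known. The genes named are the 6 score genes, Aire, Eed, genes of these lists, and the 10 genes per genotype and direction with the largest ratio among those reaching 5 reads in 25% or more of the highest-scoring cells (higher) or the others (lower), the same direction in every batch with 3 or more of the highest-scoring cells, and the same direction without the cell with most reads. Genes within 150 kb of a score gene were added after their values were seen. WT cells were not analysed here. Some members of the transcription factor list are not reported here. Other sizes and forms of the score, scalings, added CPM, filters, batches left out and day 4 alone were tried, and 2 more were added once the data had been seen, leaving out the cell with most reads of each gene and the cycling cells. The steps were tested on simulated data. Python 3.11.15, numpy 2.4.6, scipy 1.17.1, pandas 2.3.3 and matplotlib 3.10.9 were used, with edgeR 4.0.16 and DESeq2 1.42.0 for scaling factors.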

Additional observations from a re-analysis of the deposited data

Results flagged for a closer look

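Eef1a2, the elongation factor form of neurons and muscle, ran in opposite directions in the highest-scoring cells of the genotypes, and did so in each of the 4 batches of both. Its log2 ratio over the other cells was 3.57 in EED-cKO (30.1 against 2.44 CPM) and -1.23 in Aire/EED-dKO (0.404 against 1.08 CPM). In EED-cKO 80.4% of its reads lay in a single cell, and the ratio was 1.304 without that cell. In Aire/EED-dKO both levels were low and batch 6 held 2 of the highest-scoring cells, so the direction there rests on few reads. Of Aire, Eed, the secretory lists and the genes named by rule, it was the 1 that did so in all 8 batches. It was among these genes through the rule for named genes, which asked for 1 direction in every EED-cKO batch with 3 or more of the cells, so its direction in batches 3, 4 and 9 was fixed by that choice. The difference between genotypes was not tested.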

How the results depend on the processing

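No paired analysis was possible because no label links a cell or batch of 1 genotype to the other, and each batch holds 1 genotype. The causes of the shifts given here were not tested. For Aire in EED-cKO (0.81) the log2 ratio was 0.58 with 100 cells, 0.65 with 25 cells of each genotype, 1.00 with DESeq2 size factors, 0.65 without cycling cells, 0.18 without Insm1 and 0.21 with SD scaling, and 0.77 to 0.89 with a batch left out. For Aire in Aire/EED-dKO (-0.62) it was -1.20 to 0.18 with a batch left out, turning positive without batch 7. The share of Aire/EED-dKO cells (72%) was 56% without Insm1 and 56% with SD scaling, and 62.2% to 80% with a batch left out. With 25 cells of each genotype the share is fixed and gives no value. The secretory genes at least 2-fold higher in EED-cKO (30) were 18 at day 4 alone and 22 to 33 with a batch left out, and those in Aire/EED-dKO (15) were 12 to 21.

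Genes at least 2-fold higher were 6.76% in Aire/EED-dKO, with 2.53% when 1 CPM was added and 4.59% with a filter of 5 reads in 5% of cells (988 of 21526 genes), and 12.2% in EED-cKO, with 8.06% and 9.99%. Genes at least 2-fold lower were 13.4% in Aire/EED-dKO, with 3.83% when 1 CPM was added, 9.83% with that filter and 8.38% with 100 cells, and 27.9% in EED-cKO, with 13.3%, 21.2% and 17.97%, and 18.2% without Insm1. With a batch left out they were 7.08% to 8.02% and 11.35% to 12.97% higher, and 13.56% to 18.9% and 29.5% to 34.8% lower. The difference in genes per cell in Aire/EED-dKO (-142.5) was -376.5 with all reads.

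For genes left out of the score, the number at least 2-fold higher in EED-cKO (0) was 2 with 100 cells, 1 with mean CPM per cell and 0 to 2 with a batch left out, and in Aire/EED-dKO (3) 1 to 3. In EED-cKO, Chga was -1.83 with 30 cells and -2.15 to 0.30 with a batch left out, Chgb was 2.52 with 100 cells and -6.13 to -1.39, Neurod1 was 4.60 with 100 cells, Resp18 was -0.13 to 1.09 with a batch left out (-0.05 without batch 4), and Scg2 was -0.059 with 100 cells, -6.35 with 30 cells and -6.52 to 1.97. In Aire/EED-dKO, Chgb was -1.20 to 0.97 with a batch left out, Neurod1 was 0.24 with 100 cells and Scg2 was -0.055 with 30 cells. Of 313 values under an alternative, 27 of the group results moved and 1 reversed, and of the single genes and medians 1 moved and 12 reversed, where moved means beyond the spread between batches or, for counts of genes, beyond 1.5 times. With 14 cells in EED-cKO, a gene found in 1 cell sets its summed level.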
